A study of Mus musculus with 13 samples.

Results

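The transcripts of 10 genes that shape and separate mitotic chromosomes were examined in isolated mouse glomeruli, out of 35967 genes with a value in the deposited table. The genes were taken by name: the 8 subunits of the condensin complexes (*Smc2*, *Smc4*, *Ncapd2*, *Ncapg*, *Ncaph*, *Ncapd3*, *Ncapg2* and *Ncaph2*), the DNA topoisomerase *Top2a* and the proliferation marker *Mki67*, and all 10 were found. Condensin is a ring-shaped motor that folds chromatin into compact loops when cells divide. Condensin I and condensin II share the SMC2 and SMC4 ATPase arms and differ in their other subunits, a kleisin that closes the ring (NCAPH or NCAPH2) and HEAT-repeat proteins that hold DNA (NCAPD2 and NCAPG, or NCAPD3 and NCAPG2). Condensin II is found in the nucleus throughout the cell cycle, and condensin I reaches the chromosomes after the nuclear envelope breaks down. Topoisomerase IIα, the product of *Top2a*, cuts and passes double-stranded DNA to untangle sister chromatids, and Ki-67 coats mitotic chromosomes and keeps them apart. Most cells of a resting adult glomerulus are not dividing, and podocytes in particular are regarded as terminally differentiated.

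Membranous nephropathy (MN) was modelled in wild-type Balb/c mice by passive transfer of antibody: the MN mice received 2.0 mg of rabbit IgG against THSD7A, a podocyte surface protein, and the control mice 2.0 mg of preimmune rabbit IgG, both into the peritoneum. Glomeruli were isolated with magnetic beads and 1 RNA-Seq library was made per sample: 5 control, 4 MN at day 1 and 4 MN at day 5. The control mice were killed on either day and form 1 group, the day of each being not given in the sources used here, and the MN experiments used male mice. The antibody is made in rabbits and injected, so the model holds the first days of antibody binding and not an immune response that the mice began themselves. The values are TPM, a transcript abundance that is relative to the length of the transcript and to the total of the library. TPM keep no record of sequencing depth, so the depth behind each value is unknown. In bulk tissue, more cells that express a gene and more RNA per cell cannot be told apart.

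Markers of the cell types of the glomerulus were present in every library. The summed TPM of 6 podocyte markers lay between 7331 and 9872 in control, 8096 and 9933 in day 1 MN and 8899 and 9546 in day 5 MN libraries. Those of 6 endothelial markers lay between 4466 and 5611 in control, 4390 and 5175 at day 1 and 5254 and 5576 at day 5, and those of 6 mesangial markers between 1634 and 2362, 1945 and 2054, and 2285 and 2663. Both sums were higher in every day 5 library than in every day 1 library, overlapped between day 5 and control, and no marker of either list was called. Their part in the changes below was not tested. Tubule RNA varied more. The 8 tubule markers summed to 2312 to 3904 in 4 control libraries, 8212 in control replicate 5, 4066 to 7350 at day 1 and 3017 to 3598 at day 5. Leukocyte markers were low throughout, with sums of 26.4 to 47.0 in control, 29.8 to 56.5 at day 1 and 25.9 to 49.7 at day 5. The 6 parietal epithelial markers summed to 100.3 to 147 in control, 119 to 145 at day 1 and 84.3 to 117 at day 5. No marker of these lists was at 0 in any library.

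At day 5 most of these genes rose. Against control, 7 of the 10 were called higher and none lower, where a call required an adjusted p under 0.05 (limma with Benjamini-Hochberg adjustment over 14322 genes) and an absolute log2 fold change above 0.5. Of all genes tested, 2.42% were called higher and 0.789% lower in this contrast. The 7 were *Mki67*, *Ncapg*, *Ncapg2*, *Ncaph*, *Top2a*, *Ncapd2* and *Smc2*. *Smc4* passed on its adjusted p but not on its fold, and *Ncapd3* and *Ncaph2* passed neither. One of the 7, *Ncapg*, met the minimum for testing, a TPM of 1 in 4 libraries, through the day 5 libraries alone, and the other 9 genes reached it in at least 8 libraries. At day 1 none of the 10 was called, beside 0.0908% of all genes.

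**Figure D1:**
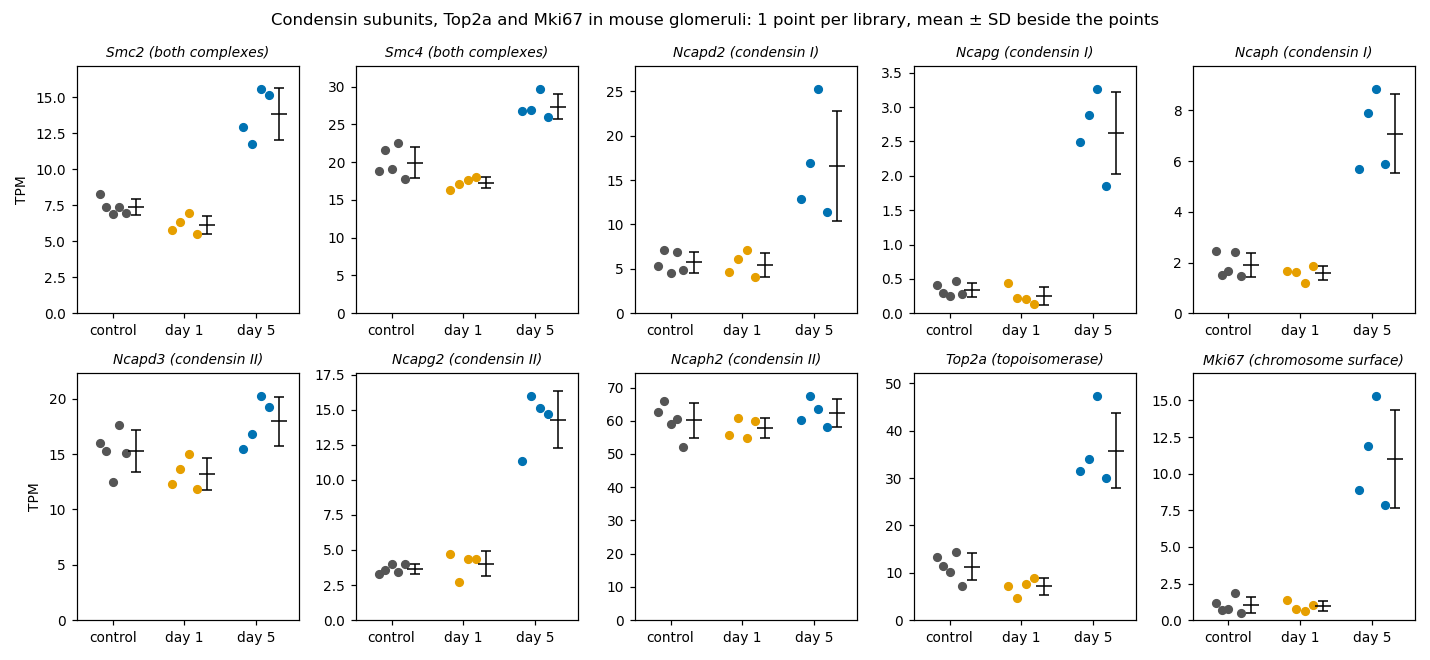
TPM of each gene (vertical axis, from 0, with its own scale in each panel) in the control (n = 5), day 1 MN (n = 4) and day 5 MN (n = 4) libraries, 1 point per library, with the mean and SD drawn beside the points. The day 5 libraries lie apart from both other groups in 8 panels, while in the *Ncaph2* panel the 3 groups overlap and in the *Ncapd3* panel day 5 overlaps with control.

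*Smc2* and *Smc4* encode the arms that both complexes use. *Smc2* (chr4:52439214-52488264 in GRCm39, plus strand, 25 exons in its canonical transcript) had TPM of 8.29, 7.42, 6.87, 7.41 and 6.97 in the control libraries, 5.77, 6.36, 6.94 and 5.52 at day 1, and 12.9, 11.8, 15.6 and 15.1 at day 5. Every day 5 library was above every other library, and the day 1 libraries lay at or below the lower part of the control range. The log2 fold change at day 5 was 0.89 ± 0.10 (SE, adjusted p = 0.000119, limma). *Smc4* (chr3:68911944-68941960, plus strand, 24 exons) stood higher, with TPM of 18.8, 21.6, 19.1, 22.5 and 17.8 in control, 16.3, 17.1, 17.6 and 18.1 at day 1 and 26.8, 27.0, 29.7 and 25.9 at day 5. Its day 5 libraries did not overlap with the others either, and its log2 fold change of 0.48 ± 0.07 (SE, adjusted p = 0.00109, limma) fell just short of the minimum for a call. Without control replicate 2, control replicate 4 or day 5 replicate 4 the same value was 0.50, 0.52 and 0.52, and *Smc4* was called. The ratio of the TPM of *Smc2* to that of *Smc4* was 0.330 to 0.441 in control, 0.306 to 0.393 at day 1 and 0.436 to 0.584 at day 5.

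The subunits found only in condensin I all rose. *Ncapd2* (chr6:125144962-125169080, minus strand, 32 exons), a HEAT-repeat subunit, had TPM of 5.28, 7.11, 4.55, 6.91 and 4.92 in control, 4.69, 6.07, 7.09 and 4.07 at day 1, and 12.9, 16.9, 25.3 and 11.4 at day 5. The lowest day 5 library was above the highest of the others, and day 5 replicate 3 stood well above its group, which gave the mean of 16.6 ± 6.21 (SD, n = 4) against 5.76 ± 1.18 in control (SD, n = 5). Its log2 fold change was 1.44 ± 0.21 (SE, adjusted p = 0.0012, limma). In its canonical transcript 317 bases, 6.28%, lie opposite exons of *Mrpl51*. That gene had a TPM of 43.9 ± 2.71 in control (SD, n = 5) and 52.4 ± 6.38 at day 5 (SD, n = 4). It was not called (log2 fold change 0.28, adjusted p = 0.0890, limma).

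*Ncaph*, the kleisin of condensin I (chr2:126945729-126975874, minus strand, 18 exons), had TPM of 2.44, 1.52, 1.65, 2.42 and 1.47 in control, 1.67, 1.63, 1.2 and 1.87 at day 1, and 5.69, 7.91, 8.85 and 5.89 at day 5. Again no day 5 library overlapped with the others, and the mean was 3.73 times that of control, with a log2 fold change of 1.69 ± 0.19 (SE, adjusted p = 0.000126, limma).

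*Ncapg* (chr5:45827150-45859062, plus strand, 21 exons), the other HEAT-repeat subunit, was the lowest of the 10 genes. It stood at TPM of 0.411, 0.293, 0.246, 0.474 and 0.277 in control and 0.437, 0.225, 0.212 and 0.130 at day 1, and reached 2.49, 2.88, 3.27 and 1.86 at day 5. The mean TPM at day 5 was 7.72 times that of control, while the log2 fold change was 1.90 ± 0.22 (SE, adjusted p = 0.000192, limma), since the 0.5 added to each value before taking log2 is larger than the TPM of *Ncapg* in the first 2 groups. In the GENCODE annotation 1943 bases of the canonical *Ncapg* transcript, 39.0% of it, lie opposite exons of *Lcorl*. *Lcorl* had a TPM of 7.32 ± 1.91 in control (SD, n = 5) and 8.07 ± 1.07 at day 5 (SD, n = 4) and was not called (log2 fold change 0.19, adjusted p = 0.702, limma). Whether reads were assigned by strand is not given in the sources used here, so reads of both genes cannot be told apart in that stretch.

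The subunits found only in condensin II did not move together. *Ncapg2* (chr12:116368940-116427351, plus strand, 29 exons), the counterpart of *Ncapg*, had TPM of 3.26, 3.56, 3.99, 3.45 and 4.03 in control, 4.70, 2.69, 4.39 and 4.36 at day 1, and 11.3, 16.0, 15.1 and 14.7 at day 5. The day 5 libraries were all above 11 and all others below 5. Its log2 fold change of 1.85 ± 0.15 (SE, adjusted p = 1.75e-05, limma) had the smallest adjusted p of the 10 genes.

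*Ncapd3* (chr9:26941456-27006626, plus strand, 35 exons), the counterpart of *Ncapd2*, had TPM of 16.0, 15.3, 12.5, 17.6 and 15.1 in control, 12.3, 13.7, 15.0 and 11.8 at day 1, and 15.5, 16.8, 20.3 and 19.3 at day 5. Control and day 5 libraries overlapped. The log2 fold change of 0.26 had a 95% confidence interval of 0.04 to 0.48 (adjusted p = 0.175, limma). In its canonical transcript 750 bases, 13.3%, lie opposite exons of *Jam3*, a gene with a TPM of 155 ± 19.4 in control (SD, n = 5). Another 468 bases, 8.30%, lie opposite exons of *Vps26b*, with a TPM of 41.7 ± 2.04 in control (SD, n = 5). Against day 1 alone the day 5 libraries did not overlap, with a log2 fold change of 0.42 (adjusted p = 0.0646, limma). That adjusted p ranged from 0.0410 to 0.188 over the alternative settings, and the fold stayed under the minimum in each.

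*Ncaph2* (chr15:89239895-89257056, plus strand, 19 exons), the kleisin of condensin II, was the highest of the 10 genes in every group. Its TPM were 62.8, 66.0, 59.1, 60.6 and 52.1 in control, 55.8, 60.8, 54.9 and 60.0 at day 1, and 60.1, 67.5, 63.5 and 58.1 at day 5. The 3 groups overlapped, and the 95% confidence interval of the log2 fold change of 0.09 at day 5 was -0.06 to 0.24 (adjusted p = 0.536, limma). The level of *Ncaph2* is uncertain, since 2001 bases of its canonical transcript, 61.7%, lie opposite exons of *Tymp* and *Sco2*. These neighbours were far lower, with TPM of 3.90 ± 0.52 for *Tymp* and 0.94 ± 0.75 for *Sco2* in control (SD, n = 5). At day 5 they stood at 2.70 ± 0.50 and 3.58 ± 1.82 (SD, n = 4). *Sco2* met the rule for a call (log2 fold change 1.56, adjusted p = 0.0470, limma) and *Tymp* did not (-0.44, adjusted p = 0.211, limma).

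*Top2a* (chr11:98883769-98915062, minus strand, 36 exons) was the more abundant of the remaining pair. Its TPM were 13.4, 11.4, 10.2, 14.4 and 7.12 in control, 7.25, 4.58, 7.63 and 8.97 at day 1, and 31.5, 34.0, 47.4 and 30.003 at day 5. The day 5 libraries were more than double any other library, and 3 of the 4 day 1 libraries lay between the lowest and the second lowest control library while day 1 replicate 2 lay below all controls. The log2 fold change at day 5 was 1.67 ± 0.20 (SE, adjusted p = 0.000264, limma).

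*Mki67* (chr7:135291513-135318299, minus strand, 14 exons) changed most. It had TPM of 1.18, 0.724, 0.790, 1.86 and 0.475 in control, 1.37, 0.771, 0.594 and 1.03 at day 1, and 8.89, 11.9, 15.3 and 7.87 at day 5, so that the day 5 libraries did not overlap with the others. The mean TPM was 1.01 ± 0.54 in control (SD, n = 5) and 10.9 times as high at day 5, at 11.0 ± 3.35 (SD, n = 4), and the log2 fold change was 2.98 ± 0.27 (SE, adjusted p = 3.26e-05, limma). There were 7.71 to 15.8 *Top2a* transcripts per *Mki67* transcript in control, 5.31 to 12.8 at day 1 and 2.87 to 3.81 at day 5.

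In all, the day 5 libraries lay above every control library for 8 of the 10 genes, beside 5.07% of all genes tested. For *Ncapg*, counted among the 8, this was fixed by the filter, which it passed through the day 5 libraries alone. Ordered by mean TPM, the control libraries ran from *Ncaph2* through *Smc4*, *Ncapd3*, *Top2a*, *Smc2*, *Ncapd2*, *Ncapg2*, *Ncaph* and *Mki67* to *Ncapg*. Neighbours in this order overlapped in range from *Ncapd3* to *Ncapd2* and between *Ncaph* and *Mki67*, and the others did not. The order at day 1 was the same. At day 5 *Top2a* took the second place and *Smc4* the third. *Ncapd3*, *Ncapd2*, *Ncapg2*, *Smc2* and *Mki67* followed and then *Ncaph*, each overlapping in range with its neighbours among these 6, and *Ncapg* was again lowest and apart. Within the day 5 group, replicate 3 was the highest library for 8 genes and replicate 4 the lowest for 6. In control, replicate 4 was the highest for 5 genes, and replicate 5, the library with the highest tubule sum, the lowest for 5. Without control replicate 5 the number of genes called at day 5 was again 7.

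**Figure D2:**
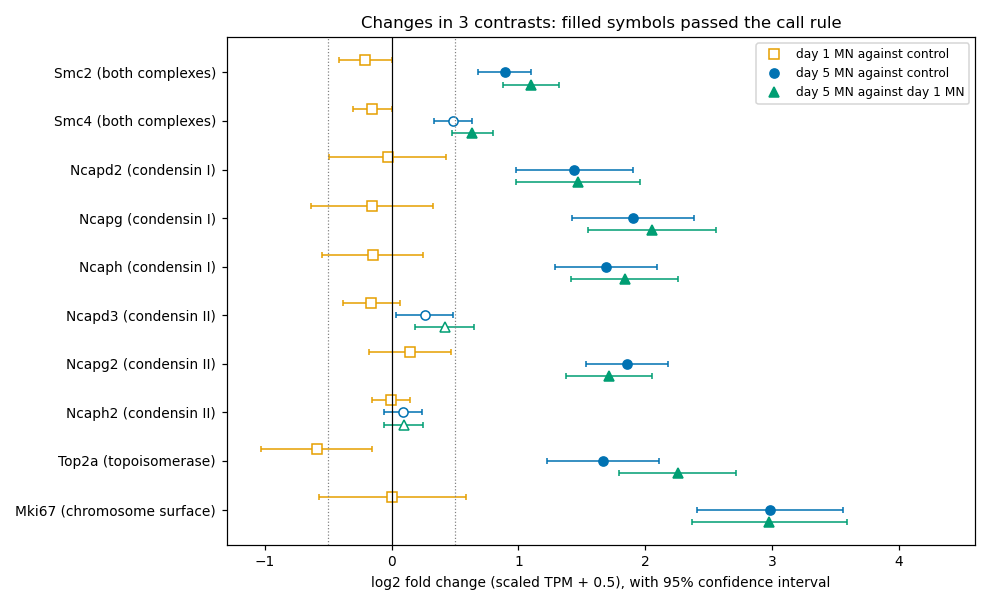
Log2 fold change of each gene (horizontal axis, on the log2(scaled TPM + 0.5) scale) in the contrasts of day 1 MN with control (squares), day 5 MN with control (circles) and day 5 MN with day 1 MN (triangles), with 95% confidence intervals as bars. Filled symbols were called, and dotted lines mark the minimum log2 fold change of 0.5 in each direction. The largest value belongs to *Mki67* (2.98), and the values of *Ncapd3* (0.26) and *Ncaph2* (0.09) lie closest to 0 at day 5.

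The day 1 contrast asked whether these transcripts had moved a day after the antibody. No gene was called. An unadjusted p under 0.05 (limma) was found for 2 of the 10 and for 12.6% of all genes tested. Of the 10 log2 fold changes 8 were negative, beside 50.8% over all genes, and their median was -0.15, beside -0.003. The lowest value was that of *Top2a* (-0.59 ± 0.20, SE, adjusted p = 0.294, limma), whose day 1 mean was 7.11 ± 1.84 (SD, n = 4) against 11.3 ± 2.84 in control (SD, n = 5). Its adjusted p ranged from 0.0671, without control replicate 5, to 0.570 over the alternatives. *Smc4* followed among those with a low unadjusted p (log2 fold change -0.15, adjusted p = 0.398, limma). In no gene did day 1 lie wholly below control, as 3.32% of all genes tested did. Tubule markers were higher in these libraries by a median log2 fold change of 0.70, with 0 of 8 called, and the part of tubule RNA in the lower values was not tested.

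Set against day 1, day 5 gave higher values. The day 5 libraries are the same as above, so the following values are not separate evidence for the rise. Of the 10 genes, 8 were called higher, beside 1.41% of all genes (0.398% were called lower), and the day 5 libraries lay above all day 1 libraries for 9, beside 6.12%. Both counts hold *Ncapg*, which passed the filter through the day 5 libraries alone, so that these had to lie above day 1. *Smc4*, now called, had a log2 fold change of 0.64 ± 0.07 (SE, adjusted p = 0.000297, limma). *Top2a* had 2.26 ± 0.21 (SE, adjusted p = 7.10e-05, limma) and *Mki67* 2.98 ± 0.28 (SE, adjusted p = 7.10e-05, limma). *Ncaph2* again stayed within the spread of its libraries (0.09, 95% confidence interval -0.06 to 0.25, adjusted p = 0.600, limma).

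Condensin I was then set against condensin II within each library by the ratio of each subunit to its counterpart, a measure that the scaling between libraries hardly touches. There were 0.330, 0.465, 0.366, 0.393 and 0.326 *Ncapd2* transcripts per *Ncapd3* transcript in control, 0.383, 0.444, 0.474 and 0.344 at day 1, and 0.833, 1.00, 1.25 and 0.594 at day 5. Day 5 lay apart from both other groups, and in 2 of its libraries the condensin I subunit was at least level with its counterpart. On the log2 scale the ratio was higher by 1.18 than in control (exact two-sided permutation test, p = 0.0159, adjusted p = 0.0643 over 9 tests) and by 1.05 than at day 1 (exact permutation p = 0.0286, adjusted p = 0.0643).

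For the kleisins, the ratio of *Ncaph* to *Ncaph2* was 0.0389, 0.0230, 0.0280, 0.0400 and 0.0282 in control, 0.0299, 0.0268, 0.0219 and 0.0312 at day 1, and 0.0947, 0.117, 0.139 and 0.101 at day 5. The day 5 libraries were again apart, with a log2 difference of 1.60 from control (exact permutation p = 0.0159, adjusted p = 0.0643) and 1.74 from day 1 (exact permutation p = 0.0286, adjusted p = 0.0643). These are the smallest p that groups of this size can give, 0.0159 for 5 against 4 libraries and 0.0286 for 4 against 4. Where nothing was added to the TPM before taking log2, the exact permutation p of these 4 comparisons stayed the same. Their adjusted p was then 0.0476, because the p of the *Ncapg* pair, taken up below, were smaller in that setting. The lower adjusted p is therefore not further evidence for these pairs.

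In the third pair the condensin II subunit, *Ncapg2*, was called higher as well. The ratio of *Ncapg* to *Ncapg2* was 0.126, 0.0823, 0.0618, 0.137 and 0.0686 in control, 0.0931, 0.0835, 0.0482 and 0.0298 at day 1, and 0.220, 0.180, 0.216 and 0.126 at day 5, with day 5 and control overlapping. With 0.5 added to the TPM the log2 difference of day 5 from control was 0.05 (exact permutation p = 0.873, adjusted p = 0.873), and with nothing added it was 1.00 (exact permutation p = 0.0317, adjusted p = 0.0476). With 1 added it was -0.30 (exact permutation p = 0.143, adjusted p = 0.257), so the direction for this pair rests on how the low *Ncapg* values are treated. *Ncapg* also passed the filter through the day 5 libraries alone, so the day 5 p of this pair are a description and not a test. None of the 3 ratios differed from control at day 1 by this test (exact permutation p = 0.302, 0.190 and 0.397, in the order given here, adjusted p at least 0.343).

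**Figure D3:**
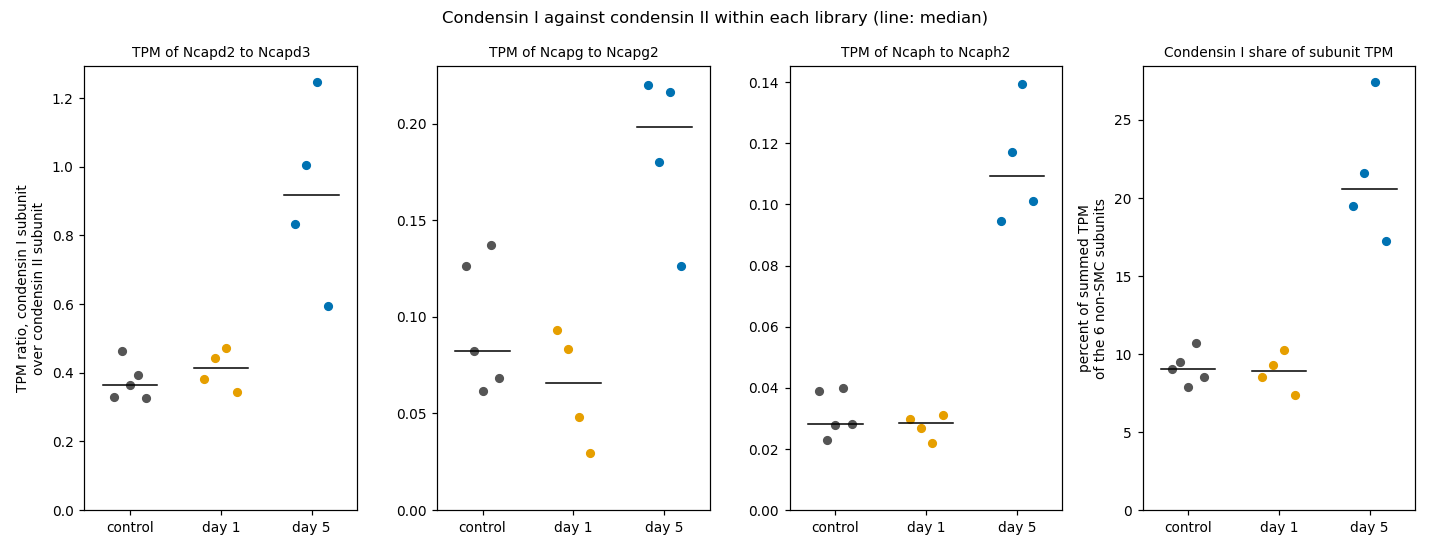
Ratio of the TPM of each condensin I subunit to its condensin II counterpart (first 3 panels, each from 0 with its own scale) and condensin I subunits as a percentage of the summed TPM of the 6 subunits outside the SMC pair (last panel), by group, 1 point per library and a line at the median. The share of condensin I was 7.87 to 10.7% in control and 17.2 to 27.4% at day 5, and only in the *Ncapg* panel do the day 5 and control libraries overlap.

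Summed over its 3 own subunits, condensin I transcripts made up 7.87 to 10.7% of both complexes in control, 7.37 to 10.3% at day 1 and 17.2 to 27.4% at day 5. The 3 condensin I subunits summed to a median TPM of 8.13 in control and 24.4 at day 5, and the 3 condensin II subunits to 81.7 and 95.5. *Ncaph2* holds most of the condensin II sum, so the overlap of that gene with its neighbours bears on the share too.

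The neighbouring pathways were counted from gene lists chosen with earlier results of these data known, so the counts are a description only. Of 17 kinases and partners that act on condensin or on the chromosome surface, 14 were called higher at day 5, beside 2.42% of all genes. None was called lower, and the median log2 fold change of the 17 was 1.79. They include *Cdk1*, which phosphorylates condensin at mitotic entry, with its cyclins *Ccnb1* (2.68, adjusted p = 6.09e-05, limma) and *Ccnb2* (2.93, adjusted p = 3.09e-05, limma). The highest value was that of *Birc5*, the survivin subunit of the chromosomal passenger complex, at 2.99 (adjusted p = 1.75e-05, limma), whose mean TPM was 1.38 ± 0.56 in control (SD, n = 5) and 13.9 ± 3.003 at day 5 (SD, n = 4). The kinase of that complex, *Aurkb*, had 2.48 (adjusted p = 0.000772, limma) and its scaffold *Incenp* 0.80 (adjusted p = 0.00461, limma). *Plk1*, a kinase that acts on condensin II, had 1.55 (adjusted p = 0.00177, limma), and *Kif4*, a chromosome-bound kinesin that works beside condensin I, had 1.96 (adjusted p = 0.000190, limma).

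The other 7 called genes of that list were *Cdca8* (1.92), *Kif22* (1.82), *Cdca2* (1.79), *Bub1* (1.75), *Aurka* (1.73), *Trip13* (1.13) and *Cdk1* itself (2.92). The 3 genes not called were *Mcph1*, an inhibitor of condensin II, at 0.13 (adjusted p = 0.626, limma), the phosphatase subunit *Ppp1cc* at 0.06 (adjusted p = 0.504, limma) and the Ki-67 partner *Nifk* at -0.09 (adjusted p = 0.599, limma). Against day 1, 13 of the 17 were called higher, beside 1.41% of all genes tested.

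Cohesin, the sister SMC complex that holds chromatids together, showed another picture. Over 17 genes of cohesin and its regulators the median log2 fold change at day 5 was 0.02. Of the 17, 4 were called higher, beside 2.42% of all genes tested, and none lower. These were *Cdca5* (2.07, adjusted p = 0.000175, limma) and *Esco2* (2.05, adjusted p = 0.000479, limma), which establish cohesion during replication, *Sgo1* (1.85, adjusted p = 0.00170, limma), which protects it at centromeres, and *Pttg1* (1.503, adjusted p = 0.000266, limma), the securin that holds separase inactive. The ring itself was not called, with log2 fold changes of 0.02 for *Smc1a*, -0.03 for *Smc3* and 0.01 for *Rad21*, and the lowest value of the list was that of *Esco1* (-0.16).

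None of the 8 genes of the SMC5/6 complex was called, and their log2 fold changes ran from -0.16 (*Smc6*) to 0.27 (*Nsmce2*). Of 7 other topoisomerases and their repair enzymes none was called higher. *Top2b*, the paralog of *Top2a* that non-dividing cells use, had a log2 fold change of -0.04 (adjusted p = 0.830, limma) and TPM of 64.0 ± 4.83 in control (SD, n = 5) and 60.8 ± 5.75 at day 5 (SD, n = 4). The highest value was that of *Tdp1* (0.03), and the mitochondrial *Top1mt* was called lower (-0.60, adjusted p = 0.0120, limma). At day 1 no gene of the 4 lists was called.

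**Figure D4:**
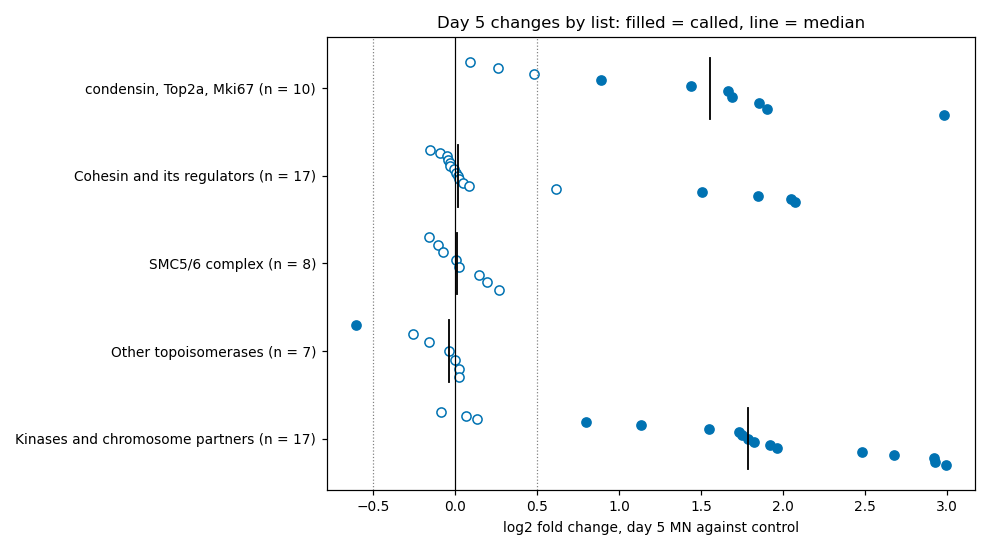
Log2 fold change at day 5 against control (horizontal axis) for the 10 genes examined and for each gene of 4 related lists, 1 point per gene, filled where called, with a line at the median of each list and dotted lines at 0.5 in each direction. The kinases and partners (median 1.79) lie with the 10 genes, and the medians of the cohesin (0.02), SMC5/6 (0.01) and topoisomerase (-0.04) lists lie near 0.

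Some markers of other cell types moved at day 5 as well. *Cdkn1c*, a cell cycle inhibitor of mature podocytes, was called higher (log2 fold change 0.72, adjusted p = 0.000708, limma), as was the parietal cell marker *Cldn1* (1.08), and *Krt7*, an epithelial keratin, was called lower (-0.89). The lowest podocyte value was that of *Synpo* (-0.46), and the endothelial markers ran from 0.03 (*Kdr*) to 0.29 (*Emcn*), the mesangial from -0.17 (*Pdgfrb*) to 0.46 (*Ren1*) and the tubule from -0.74 (*Aqp2*) to 0.18 (*Slc12a3*), with none called in those 3 lists. All 6 endothelial and 5 of 6 mesangial values were above 0. *Synpo*, *Emcn* and the mesangial *Serpine2* (0.42) missed a call on the fold alone (adjusted p = 0.00197, 0.0127 and 0.0113, limma). Against day 1, *Aqp2* (-1.297, adjusted p = 0.0286, limma) and *Krt7* (-0.72, adjusted p = 0.0159, limma) were called lower. Of the 8 leukocyte markers 5 could be tested and 0 were called, with 5 of 5 above 0, from *Lyz2* (0.05) to *Ptprc* (0.71). The part of such cells in the rise of the 10 genes was not tested.

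The genes whose levels followed these most closely over the 13 libraries were named by Pearson's r of their log2 values. Nearest to *Top2a* were *Shcbp1* (0.98), *Ccna2* (0.98), *Mad2l1* (0.98), *Mxd3* (0.97) and *Ckap2* (0.97). Nearest to *Mki67* were *Kif18b* (0.99), *Prc1* (0.99), *Kif11* (0.99), *Rrm2* (0.99) and *Pimreg* (0.99), and *Ncaph* had *Ccna2* (0.99), *Kif18b* (0.98), *Kif4* (0.98), *Ckap2* (0.98) and *Prc1* (0.98). The 13 points share their libraries and the step between day 5 and the other groups, so the values are a description only. *Ncaph2*, which lacks that step, had *Dnm2* (0.91), *Mansc1* (0.88), *Gpat4* (0.87), *Tnfrsf1a* (0.86) and *Ino80c* (0.85) nearest.

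The promoters of 9 of the genes were searched for the letters of short elements known from cell cycle genes: the cell cycle genes homology region (CHR, TTTGAA) and the CCAAT box (CCAAT), and an E2F-like motif (TTTNNCGC), each on both strands. The window ran from 250 bases before to 50 bases after the start of the canonical transcript in GRCm39. A CCAAT box was found in 4 of the 9 windows (*Smc2*, *Ncapg*, *Top2a* and *Mki67*), beside 39.9% of 21770 protein-coding promoters, and a CHR in 2 (*Smc2* and *Top2a*), beside 17.1%. The same 2 held both, as did 7.45% of all promoters, and the E2F-like letters occurred in *Ncapg2* alone, beside 6.30%. Of the genes called at day 5, *Ncapd2* and *Ncaph* had none of the 3 motifs.

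Stretches of 160 bases, 130 before the start and 30 from it on, are shown for 3 genes as examples. They do not span the changes at day 5. The called genes *Ncapd2* and *Ncaph*, without a match, are not shown. Nor is *Mki67*, which changed most and whose CCAAT boxes lie after the start. *Top2a* has both elements, several times over, and rose, *Ncapg* has a single CCAAT box and rose, and *Ncaph2* has neither and was not called. Each is written 5′ to 3′ on the strand of its gene, with matches in capitals (ATTGG and TTCAAA are CCAAT and TTTGAA read on the other strand).
Top2a (chr11:98915012-98915171, minus strand): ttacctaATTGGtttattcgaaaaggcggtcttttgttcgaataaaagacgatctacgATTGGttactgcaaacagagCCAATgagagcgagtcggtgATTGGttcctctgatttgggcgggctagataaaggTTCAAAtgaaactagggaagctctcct
Ncapg (chr5:45827020-45827179, plus strand): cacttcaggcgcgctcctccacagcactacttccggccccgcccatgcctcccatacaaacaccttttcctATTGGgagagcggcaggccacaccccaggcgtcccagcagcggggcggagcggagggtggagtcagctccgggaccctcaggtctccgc
Ncaph2 (chr15:89239765-89239924, plus strand): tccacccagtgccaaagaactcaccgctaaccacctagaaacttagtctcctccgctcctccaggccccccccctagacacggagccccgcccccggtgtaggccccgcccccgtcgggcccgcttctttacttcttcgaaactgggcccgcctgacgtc
In *Top2a* the stretch holds 4 CCAAT boxes and a CHR just after the start. The matches describe letters in a window and not bound sites. Only the exact letters given above were searched, so the windows without a match say nothing of variants of them or of other elements.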

How the data were processed

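Per the labels and the paper's methods, the authors checked and trimmed reads with FastQC 0.11.9 and Trimmomatic 0.39, assigned them to GRCm39 transcripts with kallisto 0.46.2 and deposited TPM, 1 value per gene and library. Groups came from the sample titles. Libraries were scaled by median-of-ratios factors from the 15772 genes that had no 0, and log2(TPM + 0.5) was used. Testing required a TPM of 1 in 4 or more libraries, which 14322 of 35967 genes met, and used limma 3.58.1 in R 4.3.3 (1 fit of all 3 groups, eBayes with a trend) and Benjamini-Hochberg adjustment per contrast. The fit was tested on simulated data. Subunit ratios were compared by exact two-sided permutation of libraries (scipy 1.17.1), adjusted over 9 tests. The study states that the animals of a group were biologically independent. The named genes are all 10 genes, neighbours opposite their exons and the 5 nearest by correlation outside the 10. From the lists, genes called in any contrast or lying highest or lowest in their list at day 5 were named. A few other list genes, among them *Serpine2*, *Top2b* and *Smc1a*, are named as well. The genes and lists were chosen with earlier results of these data known. Coordinates, overlaps and promoters come from GENCODE vM39 on GRCm39, a later annotation than the authors' Ensembl release. The promoter of 1 of the genes is not reported here. Read counts were not used here, so no counting intervals are given. Alternatives were other pseudocounts, scalings, filters and variance settings, a replicate block and leaving out each library.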

Additional observations from a re-analysis of the deposited data

Results flagged for a closer look

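Of 30 sets of libraries (10 genes in 3 groups) 1 held a library far from the rest: *Ncapg2* in day 1 MN replicate 2, at a TPM of 2.69 with the other 3 libraries between 4.36 and 4.70. Chance alone would set about 1 in 20 such sets apart. That library did not stand apart in this way for any of the other genes.

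Day 5 and day 1 MN libraries differed for 8 genes, those called higher in that contrast above, beside 1.41% of all genes tested. The day 5 and day 1 effects share their controls, so their difference equals that contrast. An adjusted p under 0.05 (limma) was part of the call and is not separate evidence. The days of the control mice are not given, so antibody and time after the injection cannot be told apart here. On the log2 scale the difference was 2.98 for *Mki67*, 2.26 for *Top2a*, 2.05 for *Ncapg*, 1.84 for *Ncaph*, 1.71 for *Ncapg2*, 1.47 for *Ncapd2*, 1.097 for *Smc2* and 0.64 for *Smc4*.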

How the results depend on the processing

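The number of genes called was 7 at day 5, 8 for day 5 against day 1 and 0 at day 1 under every scaling, pseudocount and variance setting tried. A TPM of 1 in every library left 8 genes to test, without *Mki67* and *Ncapg*, of which 5 and 6 were called, and the adjusted p alone gave 8 at day 5. Leaving out 1 library at a time gave 7 to 8 at day 5, 8 to 8 for day 5 against day 1 and 0 to 0 at day 1.

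With no pseudocount the day 5 ratio tests reached an adjusted p of 0.0476. The exact permutation p of the *Ncapd2* and *Ncaph* pairs at day 5 were unchanged, and their adjusted p fell because the p of the *Ncapg* pair were smaller. *Ncapg* passed the filter through the day 5 libraries alone, so the lower adjusted p is not further evidence. The log2 differences from control at day 5 were 1.25 (*Ncapd2* to *Ncapd3*), 1.00 (*Ncapg* to *Ncapg2*) and 1.86 (*Ncaph* to *Ncaph2*), and from day 1 they were 1.12, 1.65 and 2.04. With a pseudocount of 1 *Ncapg* to *Ncapg2* turned to -0.30 against control and -0.0772 against day 1. Without 1 library the differences at day 5 were 1.02 to 1.37, -0.0417 to 0.19 and 1.501 to 1.68 from control and 0.89 to 1.24, 0.22 to 0.49 and 1.64 to 1.82 from day 1, and those of day 1 from control 0.07 to 0.20, -0.44 to -0.17 and -0.23 to -0.07. The *Ncapg* pair turned negative without day 5 replicate 1 or 3 or control replicate 3 or 5.

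At day 1, values near 0 changed sign. *Mki67* (0.006) was -0.00179 with a pseudocount of 1, -0.0257 with TPM as deposited, -0.0679 with quantile normalization, -0.13 with the replicate block and -0.0868 with quality weights, and -0.13 to 0.18 without 1 library. Without 1 library *Ncapd2* was -0.146 to 0.0895 and *Ncaph2* -0.0418 to 0.0287.

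The labels tie replicate numbers to no shared litter, batch or day, and the deviations of same-numbered libraries correlated with r of -0.06 to 0.09 over 12 pairs, so the numbers were not taken as a pairing. With the number as a replicate block the genes called were again 7, 8 and 0, and the calls over all genes 348, 331 and 149, against 460, 259 and 13 without it. Control replicate 5 has no MN library of the same number, so the block fits it by itself and takes it out of the contrasts with control. The day 1 log2 fold change of *Top2a* was -0.724 with the block and -0.723 without control replicate 5. For contrasts with control these settings are thus not separate checks. Without control replicate 5 the day 1 calls over all genes were 218. Why the day 1 calls rise without that library was not tested. Depth is unknown, so the precision of the lowest values, *Ncapg* and *Mki67* before day 5, cannot be given.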
